A study of Xenopus tropicalis with 24 samples.

Results

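The genotype by T3 interaction was measured in the intestine of Xenopus tropicalis tadpoles. It asks whether 3,5,3'-triiodothyronine (T3) moved a gene's RNA level differently in the wild type and in a genotype described as lacking thyroid hormone receptor. All 12 intestine libraries of a series of 24 were used. Each of 4 groups held 3 libraries: wild type (WT) without hormone, WT given 5 nM T3, TRDKO without hormone and TRDKO given 5 nM T3. All animals were at stage 54 and were held at 25 °C for 18 h, and the control groups received no treatment. TRDKO is the label of the receptor-deficient genotype, which by the series' design text lacks thyroid hormone receptor. The mutations themselves are not stated in the labels, so what receptor function is left is not known here. Nor do the labels say whether a library came from 1 animal or from several, so the p-values measure the spread between these libraries, which may be technical. The interaction is the T3 effect in TRDKO minus the T3 effect in WT on the log2 scale, so a positive value means a more positive, or less negative, T3 effect in TRDKO.

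Thyroid hormone drives amphibian metamorphosis. Its receptors, TRα from thra and TRβ from thrb, sit on DNA as partners of retinoid X receptors, hold target genes down through corepressors when hormone is absent and activate them when T3 binds. Animals without receptor lack the repression as well as the activation. In the tadpole intestine the hormone starts the replacement of the larval epithelium by an adult one grown from stem cells, together with remodelling of matrix and muscle.

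The intestine libraries held 17577407 to 24699154 counted fragments. Levels are given as CPM (counts scaled to the same total in every library), scaled by trimmed means of M values, and the spread between libraries of a group came to a common biological coefficient of variation of 6.28%. Replicate 3 of the TRDKO T3 group stood apart from its mates. Its counts differed from theirs with a mean chi-square per gene of 22.8 and 27.6, against 1.09 to 2.15 for every other same-group pair in intestine. Named genes whose call rests on it are given with and without it, as are list counts that it moved by over 1.5 times. More genes passed in all without it, 10560 against 8108 for the interaction. Of 6 defining intestinal markers, 5 had an entry under the name used, and each of these was present in every library. Among them fabp2, a fatty acid binding protein of enterocytes, lay between 1319 and 2100 CPM, and the intestinal transcription factor cdx1 between 129 and 299 CPM.

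Of 15491 genes tested, the interaction passed an adjusted p of 0.05 in 8108 (52.3%), with 4215 higher in TRDKO (27.2%) and 3893 lower (25.1%). The adjusted p-values throughout come from edgeR's quasi-likelihood test with Benjamini-Hochberg adjustment over all tested genes. T3 changed 9379 genes in WT (60.5%) and 6343 in TRDKO (40.9%), and TRDKO differed from WT in 8956 genes without hormone (57.8%) and in 7646 under T3 (49.4%). Treated and control libraries did not overlap in 73.1% of genes in WT and in 47.1% in TRDKO. With so many genes passing, the genes were sorted by size and direction. At least 1 of the 2 T3 effects had to be 2-fold or more, that is a log2 fold change of at least 1. Passing effects of this size numbered 1939 in WT (12.5%) and 954 in TRDKO (6.16%).

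A T3 effect was classed as lost where WT passed, TRDKO did not and the interaction passed against the WT effect. This held for 824 genes (5.32% of those tested), 337 that rose in WT (2.18%) and 487 that fell (3.14%). It was weakened in 359 (2.32%), where both genotypes moved the same way and TRDKO by less. It was classed as kept in 192 (1.24%), where both moved the same way and the interaction did not pass, and as stronger in TRDKO in 121 (0.781%). It was reversed in 547 (3.53%), 370 of which rose in WT and fell in TRDKO (2.39%). It was present only in TRDKO in 230 genes (1.48%), of which 74 rose (0.478%) and 156 fell (1.01%). Another 219 genes (1.41%) passed in 1 genotype with no passing interaction and were left unsorted. The remaining 12999 genes tested met no class rule, and most of the genes with a passing interaction were among them. The class shares are set by the 2-fold floor: in the reversed class the larger of the 2 effects was 1.002 on the log2 scale for fads1 just inside the floor and 0.999 for eva1a just outside. Without TRDKO T3 replicate 3, 618 of the 824 lost genes, 344 of 359 weakened, 134 of 192 kept, 114 of 121 stronger, 521 of 547 reversed and 160 of 230 TRDKO-only genes stayed in their class. The plot of T3 effects in the 2 genotypes shows the classes.

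**Figure D1:**
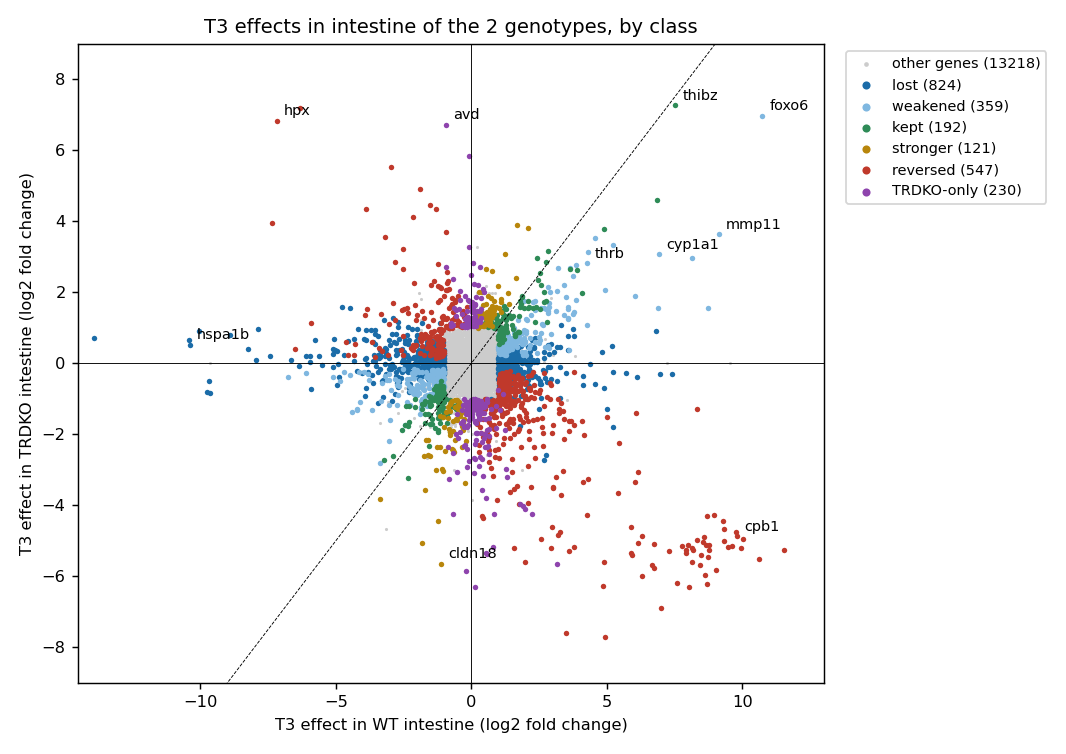
T3 effect in WT intestine (x axis) against T3 effect in TRDKO intestine (y axis), both as fitted log2 fold changes, 1 point per gene tested, coloured by class with the number of genes in the key; the dashed line marks equal effects. Genes with no count in a group have fitted values that depend on the fit's prior count. The 547 reversed genes lie in the upper left and lower right of the plot, thibz lies near the dashed line, and the heat shock gene hspa1b lies far left at a TRDKO effect near 0.

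The name lost rests on a test that missed in TRDKO, which does not show that nothing changed. Of the 791 lost genes with more than 3 counts in every group, the 95% interval of the TRDKO effect lay within 50% of the WT effect in 484. Likewise, of the 188 kept genes with such counts, the interval of the interaction lay within 1 log2 unit of 0 in 92. Among the 337 lost rises, the median T3 effect was 1.4 in WT and -0.13 in TRDKO. Among the 487 lost falls it was -1.55 and 0.04. Over all genes tested the medians were 0.01 and 0.00. The class rule asks for a passing effect in WT and none in TRDKO, so the contrast between the genotypes is largely built in.

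The 4 group levels show whether 1 group carried an interaction. A group was said to stand apart where its mean log2 CPM lay farther from the nearest other group than the other 3 groups spanned among themselves. Of the 8108 genes with a passing interaction, the WT control stood apart in 2287 (28.2%), WT T3 in 1342 (16.6%), TRDKO control in 794 (9.79%) and TRDKO T3 in 618 (7.62%). In the remaining 3067 (37.8%) no single group stood apart. Over all genes tested these shares were 21.3%, 14.2%, 10.2% and 7.68%, with no single group apart in 46.6%. Among the lost effects the WT control stood apart in 472 (57.3%), WT T3 in 215 (26.1%) and no single group in 137. The class rule itself keeps both TRDKO groups close to each other, so it favours a WT group. It does not set which of the 2 WT groups stands apart. With the WT control apart, T3 moved the gene in WT toward where both TRDKO groups lay. With WT T3 apart, the gene left the level of the other 3 groups in WT under T3. The median difference of TRDKO control from WT control was 0.90 for lost rises and -1.14 for lost falls, and the median difference of TRDKO T3 from WT T3 was -0.64 and 0.62. These contrasts share libraries with the T3 effects and are given side by side only.

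**Figure D2:**
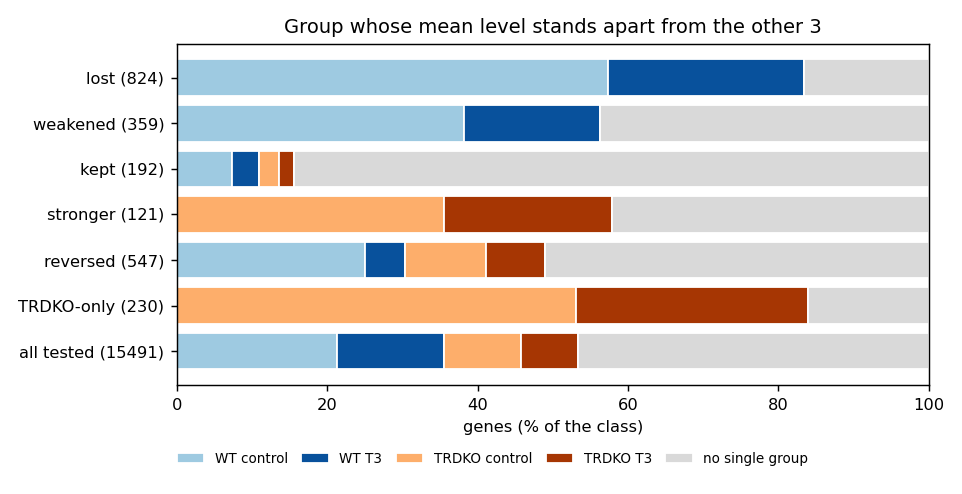
Share of genes (x axis, % of the class) in which 1 group's mean level stands apart from the other 3, by class of T3 effect with the number of genes in parentheses, and for all 15491 genes tested. The WT control segment takes 57.3% of the lost class, against 21.3% of all genes tested.

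thrb (chr6:46687270-46933187, minus strand, XENTR_10.0), itself a known direct T3 target, stood at 3.12, 3.17 and 3.06 CPM in the WT control and at 60.2, 59.2 and 60.7 CPM in WT T3. In TRDKO it stood at 4.45, 5.06 and 4.50 CPM without hormone and at 34.7, 38.1 and 25.8 CPM with it. No library of a treated group overlapped a control library, and the treated TRDKO libraries all lay below the treated WT ones. T3 raised thrb by 4.27 ± 0.13 (log2, approximate SE) in WT and by 2.83 ± 0.13 in TRDKO, an interaction of -1.44 ± 0.20 (adjusted p = 3.4e-05). RNA from a mutated gene can still be counted, so these levels do not check the genotype.

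thra (chr10:9063035-9190651, minus strand) was at 7.64, 9.56 and 10.01 CPM in the WT control, at 6.35, 6.80 and 8.27 in WT T3, at 4.63, 5.01 and 4.50 in the TRDKO control and at 11.4, 13.4 and 3.39 in TRDKO T3. Replicate 3 of TRDKO T3 lay below all other libraries and its mates lay above all of them, so the TRDKO groups overlapped. T3 raised thra in TRDKO by 1.04 ± 0.32 (adjusted p = 0.0198), with -0.34 ± 0.31 in WT (adjusted p = 0.36) and an interaction of 1.38 ± 0.45 (adjusted p = 0.0194). Without that library the interaction was 1.75 (adjusted p = 7.3e-18) and the effect counted as reversed. Without replicate 1 or 2 of that group, or replicate 1 of WT T3, its adjusted p was 0.0522, 0.0619 and 0.0517, and it was 0.0693 without the count filter and 0.0726 with limma-voom.

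Of 31 measured genes known for their response to thyroid hormone, 22 rose with T3 in WT and 17 in TRDKO. The interaction passed higher in 6 and lower in 14, against 27.2% and 25.1% of all genes tested, with a median of -0.24 against 0.00 over all genes. The effect was lost in 2, weakened in 6, kept in 3, stronger in 1, reversed in 3 and present only in TRDKO in 2, and 14 stayed below the 2-fold floor or were otherwise unsorted. Without TRDKO T3 replicate 3 the list held 1 lost, 7 weakened, 2 kept, 1 stronger, 5 reversed and 1 TRDKO-only effect. Among its transcription factors, klf9, a Krüppel-like factor and direct receptor target, was at 23.6, 25.2 and 21.1 CPM in the WT control, 39.1, 39.4 and 38.6 in WT T3, 8.19, 7.57 and 6.93 in the TRDKO control and 57.4, 58.5 and 21.1 in TRDKO with T3. The TRDKO control was the low group in all 3 libraries, and replicate 3 of TRDKO T3 fell back to the WT control level. Its T3 effect was 0.75 ± 0.26 in WT and 2.61 ± 0.29 in TRDKO (interaction 1.86 ± 0.39, adjusted p = 0.00131), or 2.94 and 2.19 for TRDKO and the interaction without that library.

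thibz, a basic leucine zipper factor induced by thyroid hormone, kept its rise and went from 0.296, 0.156 and 0.262 CPM to 44.1, 45.7 and 46.7 CPM in WT and from 0.112, 0.189 and 0.221 to 29.1, 27.5 and 25.2 CPM in TRDKO. Treated and control libraries did not overlap in either genotype. The rise was 7.52 ± 0.13 in WT and 7.28 ± 0.15 in TRDKO, and the interaction was -0.24 with a 95% interval of -1.13 to 0.66. nfib and nfic encode nuclear factor I proteins. nfib rose by 2.59 ± 0.11 in WT and 2.21 ± 0.11 in TRDKO, with an interaction of -0.38 ± 0.16 (adjusted p = 0.0547) that passed in several other fits. It was -0.38 (adjusted p = 0.0436) with the replicate number as a block, -0.46 (adjusted p = 0.0220) under upper-quartile scaling and -0.43 (adjusted p = 0.00707) over all 24 libraries. It also passed at -0.22 (adjusted p = 0.00215) without TRDKO T3 replicate 3, at -0.43 (adjusted p = 0.0449) without replicate 1 of that group and at -0.47 (adjusted p = 0.0124) without its replicate 2. nfic rose by 2.83 and 2.15 (interaction -0.68 ± 0.21, adjusted p = 0.0143, and -0.55, adjusted p = 0.0565, without WT control replicate 1).

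Of the list's matrix proteases, mmp11, the stromelysin-3 that accompanies epithelial cell death in metamorphosis, was at 0.0844, 0.0520 and 0.0437 CPM in the WT control and at 38.0, 36.5 and 37.2 in WT T3. In TRDKO it was at 0.561, 0.946 and 0.662 CPM without hormone and at 9.71, 9.16 and 7.70 with it. The 4 groups were fully separate, with the TRDKO control above the WT control and TRDKO T3 below WT T3. The rises were 9.13 ± 0.19 and 3.64 ± 0.15 (interaction -5.49 ± 0.42, adjusted p = 9.3e-08). With so few counts in the WT control, the approximate SE of its rise is too small. mmp2, a gelatinase, and mmp14, the membrane protease that activates it, rose by 1.26 and 1.32 in WT and by 0.23 and 0.35 in TRDKO. mmp2 averaged 5.71 CPM in the WT control, 13.7 in WT T3, 15.2 in the TRDKO control and 17.9 in TRDKO T3, so that only the WT control was low. Their inhibitor timp2 rose by 1.07 ± 0.08 in WT, with 0.01 ± 0.07 in TRDKO (interaction -1.07 ± 0.11, adjusted p = 1.8e-06).

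The deiodinases, which activate and degrade the hormone, went different ways. dio2, the activating enzyme, rose in TRDKO by 1.03 ± 0.10, from 2.58, 3.07 and 3.05 to 5.94, 5.92 and 5.85 CPM, and was at 2.45, 2.91 and 2.40 in the WT control and 2.20, 2.30 and 2.17 in WT T3 (-0.21 ± 0.13, adjusted p = 0.271). dio3, the inactivating enzyme, had 0, 0 and 0.175 CPM in the WT control and 1.2, 1.404 and 0.851 in WT T3, but 5.72, 5.96 and 4.90 in the TRDKO control and 0.495, 0.561 and 0.554 in TRDKO with T3. The order of the groups was thus turned around between genotypes. T3 raised dio3 by 4.13 ± 0.56 in WT and lowered it by 3.35 ± 0.25 in TRDKO (interaction -7.48 ± 0.58, adjusted p = 1.1e-07).

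**Figure D3:**
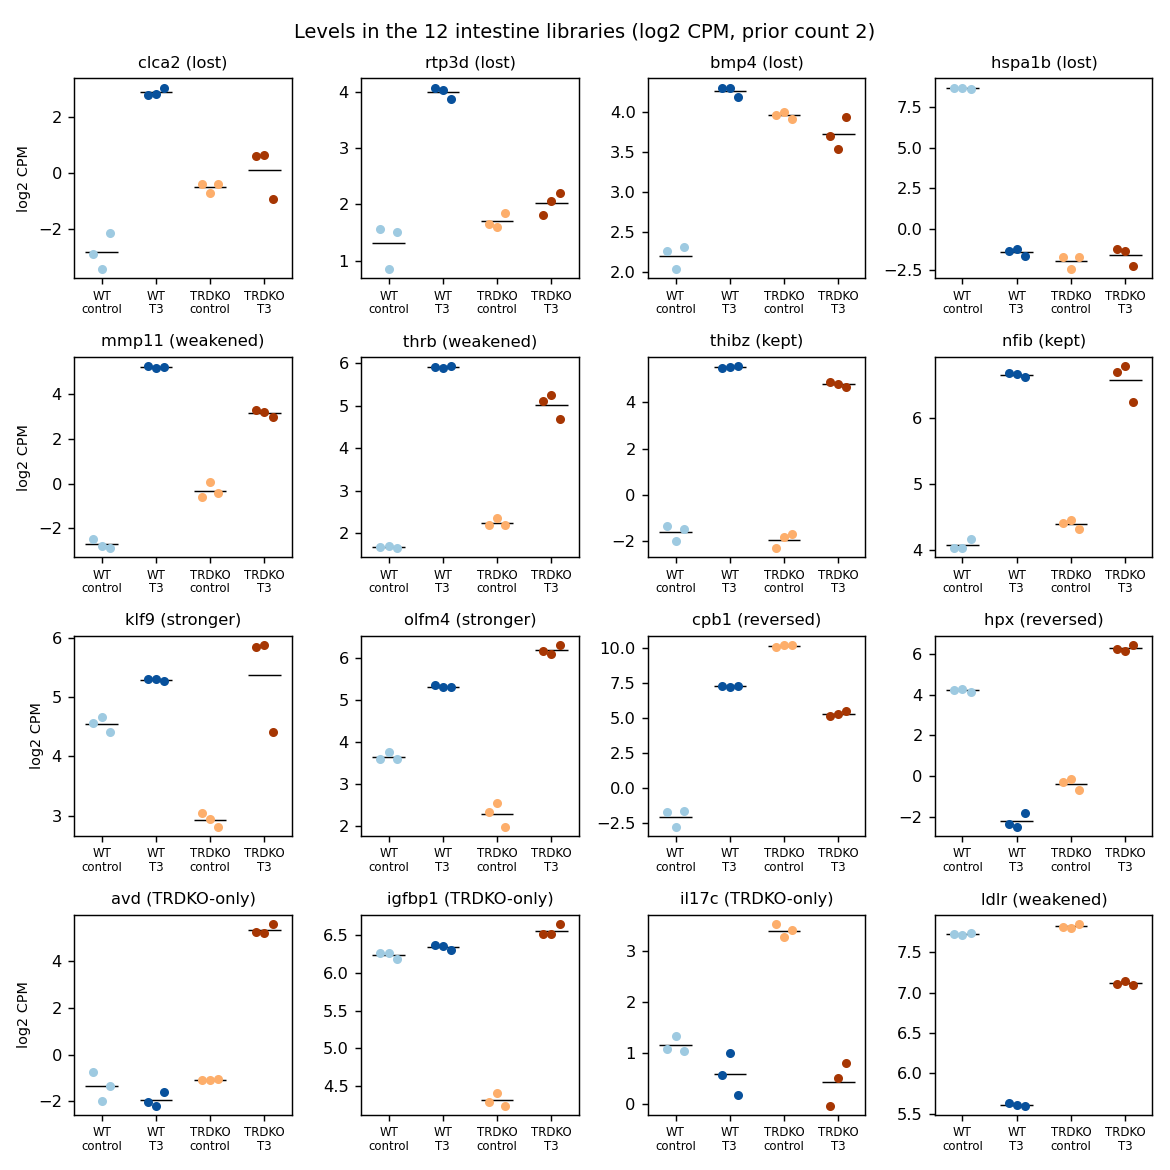
Level of 16 genes in each of the 12 intestine libraries (y axis, log2 CPM with a prior count of 2; axes differ between panels and do not start at 0), by group, with the class of the T3 effect in each panel title and a bar at the group mean. Replicate 3 of TRDKO T3 lies below its mates for klf9, clca2 and nfib, and groups near 0 CPM, such as the WT control of clca2, avd and cpb1, also spread widely on this scale; for bmp4 and hspa1b the WT control stands apart, and for rtp3d and ldlr WT T3 does.

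Lost rises took both forms. With the WT control apart, bmp4, a growth factor of the gut mesenchyme, was at 4.69, 4.0 and 4.85 CPM in the WT control, 19.8, 19.8 and 18.2 in WT T3, 15.6, 15.98 and 15.01 in the TRDKO control and 12.9, 11.6 and 15.3 in TRDKO T3. Only the WT control was low. T3 raised bmp4 by 2.09 ± 0.10 in WT, against -0.24 ± 0.09 in TRDKO (adjusted p = 0.0554), which became a passing fall of -0.33 without TRDKO T3 replicate 3. The serine protease gene htra1 (0.973 ± 0.277, 6.23 ± 0.758, 4.03 ± 0.672 and 4.48 ± 0.119 CPM, mean ± SD over WT control, WT T3, TRDKO control and TRDKO T3) and chsy1, a chondroitin sulfate synthase (7.14 ± 0.266, 37.9 ± 0.486, 20.1 ± 0.924 and 21.3 ± 3.65 CPM), also had the WT control apart. chsy1 rose by 2.41 in WT and, without TRDKO T3 replicate 3, by 0.22 in TRDKO (adjusted p = 0.00121), which would class it as weakened.

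With WT T3 apart, rtp3d was at 2.87, 1.71 and 2.75 CPM in the WT control, 16.8, 16.2 and 14.6 in WT T3, 3.06, 2.93 and 3.49 in the TRDKO control and 3.42, 4.06 and 4.50 in TRDKO with T3. The 3 WT T3 libraries were far above the other 9. Its rise was 2.67 ± 0.14 in WT, with 0.33 ± 0.16 in TRDKO (adjusted p = 0.126; interaction -2.35 ± 0.22, adjusted p = 9.7e-07). The next 3 genes of this form were chosen after their values were seen, for their large interactions. il12rb1, a receptor subunit for interleukin-12, rose by 2.18 ± 0.12 in WT and had -0.03 ± 0.15 in TRDKO. socs1, a suppressor of cytokine signalling, rose by 1.72 ± 0.12 with -0.26 ± 0.14 in TRDKO, and rab37, a small GTPase of secretion, by 2.14 ± 0.11 with 0.17 ± 0.11. Not of this form, with no single group apart, was clca2, of a family of chloride channel regulators. It was at 0.0422, 0 and 0.131 CPM in the WT control, 6.90, 7.06 and 8.27 in WT T3, 0.673, 0.520 and 0.662 in the TRDKO control and 1.44, 1.47 and 0.431 in TRDKO T3. Replicate 3 of TRDKO T3 lay at the control level, and without it the TRDKO rise of 1.23 passed (adjusted p = 1.1e-04).

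The largest lost falls were heat shock chaperones, and in each of the 5 the WT control stood apart. hspa1b (chr4:23980248-23982587, plus strand) was at 399, 408 and 391 CPM in the WT control and at 0.300, 0.340 and 0.236 in WT T3. It was at 0.224, 0.0946 and 0.221 CPM in the TRDKO control and 0.347, 0.302 and 0.123 in TRDKO T3. Only the 3 WT control libraries were high. The fall in WT was -10.38 ± 0.11, with a TRDKO value of 0.53 ± 0.40 (95% interval -0.33 to 1.38) and an interaction of 10.91 ± 0.59 (adjusted p = 2.8e-09). hsp70 went the same way (905 ± 8.81 CPM in the WT control, 1.11 ± 0.253 in WT T3, 0.600 ± 0.307 and 0.422 ± 0.156 in the TRDKO groups), as did the small heat shock genes hsp30c and hsp30e. hsp90aa1.2 had 5915 counts in the WT control and none in WT T3, at least 1940-fold lower against a floor of 3 counts over the group, with 2 and 3 counts in the TRDKO groups. Heat shock genes have near-identical copies, between which reads can be split.

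Of the 47 measured genes of heat shock and oxidative stress, 34 had a higher and 3 a lower interaction (36 and 7 without TRDKO T3 replicate 3), with a median of 2.05. Over all genes tested the interaction was higher in 27.2% and lower in 25.1%. The T3 effect was lost in 16, weakened in 7 and reversed in 7, and the WT control stood apart in 31 of 47. The summed level of the list was 20630 ± 554 CPM in the WT control, 11140 ± 394 in WT T3, 9837 ± 317 in the TRDKO control and 9967 ± 1208 in TRDKO T3. Only the WT control was high. Among the weakened falls, hmox1, heme oxygenase, averaged 1012 CPM in the WT control and 14.8, 16.7 and 13.8 in the other groups, a fall of -6.09 ± 0.07 in WT and -0.27 ± 0.07 in TRDKO. gclm, which serves glutathione synthesis, fell by 4.69 in WT and by 0.24 in TRDKO, where the fall was lost without TRDKO T3 replicate 3 (-0.10, adjusted p = 0.125). osgin1, an oxidative stress gene, fell by 4.83 and 0.51. hspbp1, which binds the HSP70 chaperone, and pir, neither of them on the list, fell by 5.11 and 4.15 in WT and by 0.38 and 0.24 in TRDKO. The chaperone of collagen, serpinh1, was an exception, rising in WT (0.98) and falling in TRDKO (-1.08).

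Of 42 measured genes of MAPK feedback and the immediate early response, 31 had a higher and 2 a lower interaction (median 0.83), against 27.2% and 25.1% of all genes. The WT control stood apart in 27 of them and in 21.3% of all genes. The AP-1 subunit gene fosl1 averaged 70.6 ± 3.40 CPM in the WT control, 1.14 ± 0.0411 in WT T3, 1.65 ± 0.504 in the TRDKO control and 1.88 ± 0.258 in TRDKO T3, a lost fall with an interaction of 6.15 ± 0.26. The growth arrest gene gadd45g fell by 1.99 in WT and rose by 1.36 in TRDKO.

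Weakened rises other than mmp11 included cyp1a1, the cytochrome P450 known as a dioxin-induced enzyme. It was at 1.48, 1.25 and 1.22 CPM in the WT control, 166, 158 and 157 in WT T3, 3.81, 3.55 and 3.84 in the TRDKO control and 29.97, 32.6 and 32.5 in TRDKO with T3. The groups were fully separate in every comparison. It rose by 6.92 ± 0.08 in WT and by 3.08 ± 0.07 in TRDKO (interaction -3.84 ± 0.12, adjusted p = 8.1e-12). foxo6, a forkhead factor, had 1 count in the WT control and 6 in the TRDKO control and averaged 35.6 CPM in WT T3 and 11.4 in TRDKO T3. gpr83, an orphan receptor, averaged 15.2 CPM in WT T3 and 0.391 in TRDKO T3, with 2 and 9 counts in the controls. sox4, a progenitor transcription factor, rose by 2.96 in WT and 0.84 in TRDKO (interaction -2.11 ± 0.10).

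Kept rises after thibz were led by slc16a12, a transporter of the monocarboxylate family. It went from 0.845, 0.987 and 0.874 to 7.25, 6.17 and 6.003 CPM in WT and from 1.57, 1.61 and 1.90 to 14.8, 15.2 and 15.6 CPM in TRDKO. Each TRDKO group lay above its WT counterpart, and the rises were 2.84 ± 0.13 and 3.17 ± 0.11 (interaction 0.33, 95% interval -0.10 to 0.75). fzd8, a WNT receptor, rose by 2.45 ± 0.07 and 2.34 ± 0.08 (interaction -0.10, -0.34 to 0.13), and dot1l, the histone H3 lysine methyltransferase and known receptor coactivator, by 1.3 and 1.08 (interaction -0.23 ± 0.11, adjusted p = 0.0889). The interaction of dot1l passed at -0.31 under upper-quartile scaling (adjusted p = 0.0227) and at -0.28 over all 24 libraries (adjusted p = 0.0157). For zbtb20 (3.90 and 2.62) and the mucin muc5ac (-2.32 and -1.77) the interaction passed without TRDKO T3 replicate 3, at -0.94 (adjusted p = 0.00828) and 0.75 (adjusted p = 1.1e-04). That of zbtb20 also passed with DESeq2, at -1.31 (adjusted p = 0.0485). That of muc5ac also passed over all 24 libraries, at 0.50 (adjusted p = 0.0403).

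Over the class, the median effects were 1.22 in WT and 1.2 in TRDKO for the 98 rises and -1.21 and -1.12 for the 94 falls. The class rule, with its 2-fold floor and no passing interaction, largely sets these sizes and their likeness between genotypes. Among the kept falls, syt8, a synaptotagmin, went from 13.7, 13.6 and 12.98 to 6.10, 5.36 and 5.81 CPM in WT and from 14.9, 16.5 and 16.6 to 6.59, 7.21 and 6.65 CPM in TRDKO. The libraries of treated and control groups did not overlap. The falls were -1.22 ± 0.08 and -1.23 ± 0.08, and the 95% interval of the interaction ran from -0.24 to 0.24. mlc1 fell by 1.71 and 1.42. syt15 fell by 1.55 and 2.33, with an interaction of -0.78 (adjusted p = 0.099) that passed at -1.50 (adjusted p = 0.00777) without TRDKO T3 replicate 2. The interaction of syt15 also passed over all 24 libraries, at -0.83 (adjusted p = 0.0354). nkx6-3, a homeobox gene of stomach, fell by 1.21 and 1.54, with an interaction of -0.33 that passed at -0.45 (adjusted p = 0.0461) without WT control replicate 2.

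In the 121 genes with a stronger effect in TRDKO, the TRDKO control stood apart in 43 (35.5%, against 10.2% of all genes), TRDKO T3 in 27 (22.3%, against 7.68%) and no single group in 51. Among the 62 stronger falls the counts were 16 and 18. No WT group stood apart, which the class rule disfavours. olfm4, a marker of intestinal stem cells in mammals, was at 11.99, 13.5 and 12.02 CPM in the WT control, 40.8, 39.5 and 39.6 in WT T3, 4.97, 5.77 and 3.88 in the TRDKO control and 72.5, 68.2 and 79.1 in TRDKO T3. TRDKO started lower and ended higher. The rises were 1.68 ± 0.09 and 3.91 ± 0.10 (interaction 2.23 ± 0.14, adjusted p = 1.3e-08). The list of intestinal stem cell genes did not share this direction. Of its 25 measured members the interaction was lower in 11 and higher in 7 (median -0.23), against 25.1% and 27.2% of all genes. cyp7a1, the rate-limiting enzyme of bile acid synthesis, averaged 106 and 250 CPM in WT and 53.2 and 448 in TRDKO (1.23 and 3.07). g6pc.3, a glucose-6-phosphatase, rose by 0.55 and 2.66, and bcl2l11, which promotes cell death, by 0.27 and 2.01.

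Stronger falls included cldn18, a tight junction claudin of stomach and lung in mammals. It was at 0.633, 0.727 and 0.787 CPM in the WT control, 0.250, 0.383 and 0.331 in WT T3, 16.6, 16.1 and 15.9 in the TRDKO control and 0.248, 0.389 and 0.308 in TRDKO with T3. The TRDKO control alone was high and T3 took it to the level of WT T3. Its falls were -1.12 ± 0.25 and -5.65 ± 0.14. For ugt2a1, a glucuronosyltransferase, TRDKO T3 was the group apart, at 7.49 ± 1.21 CPM against 60.9 ± 1.39, 47.6 ± 0.967 and 38.1 ± 0.314 in the WT control, WT T3 and TRDKO control, and gatd3ala (-0.22 in WT, -3.36 in TRDKO) was of the same form.

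Reversed rises were dominated in size by digestive enzymes of the exocrine pancreas. cpb1, carboxypeptidase B (chr5:122047949-122058970, plus strand), was at 0.211, 0.0520 and 0.218 CPM in the WT control, 152, 150 and 157 in WT T3, 1092, 1170 and 1163 in the TRDKO control and 34.2, 38.5 and 45.0 in TRDKO with T3. The 4 groups did not overlap anywhere. T3 raised it by 9.79 ± 0.17 in WT and lowered it by 4.87 ± 0.09 in TRDKO (interaction -14.66 ± 0.19, adjusted p = 5.1e-16). Of 22 measured genes of the list, 19 were reversed, and 21 had a lower interaction and none a higher one. The median T3 effects were 8.19 and -4.86, or 7.58 and -4.71 with groups of fewer than 3 counts held at 3. Their summed level was 55.3 ± 1.18 CPM in the WT control, 1547 ± 17.7 in WT T3, 9562 ± 334 in the TRDKO control and 396 ± 58.7 in TRDKO T3. The acinar transcription factor ptf1a (0 counts in the WT control, 1.19 to 1.70 CPM in the TRDKO control) had the TRDKO control as its highest group, as had the islet hormone ins (0.261, 1.21, 10.7 and 0.998 CPM over the 4 groups). Of 14 measured endocrine pancreas genes the interaction did not pass in 9 and was lower in 3 and higher in 2 (median -0.32). Over all genes tested it was lower in 25.1% and higher in 27.2%. The islet hormone gcg lay between 31.3 and 40.8 CPM in all 12 libraries. Within the exocrine list, the lipase pnlip had its highest level in the WT control, at 47.8 to 48.8, 35.3 to 38.5, 28.04 to 30.4 and 16.3 to 20.1 CPM. The share of pancreatic tissue in each sample was not measured, and fewer cells of a type and less RNA per cell cannot be told apart in these bulk libraries.

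The other reversed rises were smaller, and the class median was 1.42 in WT and -1.17 in TRDKO, with signs set by the class rule. They held aplnr, the apelin receptor (1.97 and -0.57), sox18, an endothelial factor (1.39 and -0.92), and grem1, a BMP antagonist (1.26 and -0.33). Also among them were ciita, the regulator of MHC class II genes, at 1.25 ± 0.0214, 4.63 ± 0.372, 2.77 ± 0.394 and 1.58 ± 0.375 CPM and irf1, an interferon regulatory factor, at 43.6 ± 0.965, 189 ± 2.17, 102 ± 0.771 and 80.0 ± 6.51 CPM over the 4 groups. Here WT T3 was the highest group and the WT control the lowest. The interaction was -2.65 ± 0.23 for ciita and -2.46 ± 0.07 for irf1.

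Reversed falls had hpx, which encodes the heme-binding plasma protein hemopexin, as the largest interaction. It was at 18.8, 19.5 and 17.7 CPM in the WT control, 0.09999, 0.0851 and 0.189 in WT T3, 0.710, 0.804 and 0.530 in the TRDKO control and 77.0, 71.5 and 87.4 in TRDKO with T3. The effect went from high to low in WT and from low to high in TRDKO, with no overlap. The values were -7.17 ± 0.20 and 6.84 ± 0.13 (interaction 14.01 ± 0.22, adjusted p = 3.5e-15). The iron carrier gene tf averaged 35.9, 12.4, 30.6 and 673 CPM (-1.53 and 4.46), and the urea cycle gene arg1 5.12, 0.342, 0.167 and 3.60 CPM (-3.88 and 4.35). The 6 hepatocyte defining markers summed to 0.938 ± 0.328 CPM in the WT control, 1.313 ± 0.184 in WT T3, 6.58 ± 0.756 in the TRDKO control and 10.39 ± 2.43 in TRDKO T3. Of these, alb, fgb and ahsg had no count in either WT group, fga had 1, serpina1 had 26 and 27 counts there, and apoh had 35 and 58, more than the 30 and 21 in TRDKO. The interaction did not pass in any of the 5 defining markers measured. Of 35 measured genes of the hepatocyte list the interaction was higher in 14, lower in 6 and did not pass in 15 (median 0.61). Over all genes tested it was higher in 27.2% and lower in 25.1%. The part of hepatocyte RNA in these values was not tested. The vitamin D hydroxylase cyp24a1 fell from 111, 112 and 107 to 1.65, 1.70 and 2.13 CPM in WT and rose from 2.62, 2.27 and 2.29 to 5.30, 6.48 and 3.82 in TRDKO, with the WT control apart from the other 3 groups. pck1, the gluconeogenic enzyme and a corticosteroid target, fell by 1.08 and rose by 1.3 (2164 ± 85.0, 1021 ± 19.99, 494 ± 4.83 and 1214 ± 72.2 CPM).

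Effects present only in TRDKO were mostly of 2 forms. The TRDKO control stood apart in 122 of 230 genes (53.0%, against 10.2% of all genes) and TRDKO T3 in 71 (30.9%, against 7.68%). No single group stood apart in 37. Here too the class rule keeps the WT groups close. avd, encoding avidin (chr1:181879654-181884029, minus strand), was at 0.507, 0.156 and 0.306 CPM in the WT control, 0.150, 0.128 and 0.236 in WT T3, 0.374, 0.378 and 0.397 in the TRDKO control and 38.3, 37.1 and 48.3 in TRDKO T3. It was high in the 3 TRDKO T3 libraries alone. The rise was 6.72 ± 0.18, with -0.95 ± 0.56 in WT (adjusted p = 0.151; interaction 7.67 ± 0.69, adjusted p = 5.5e-07). pzp, of the alpha-2-macroglobulin family, was of the same form (5.83 ± 0.23 against -0.10 ± 0.51).

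In contrast, igfbp1, an insulin-like growth factor binding protein, was low in the TRDKO control alone: 76.2, 76.6 and 72.4 CPM in the WT control, 82.1, 81.2 and 78.7 in WT T3, 19.6, 21.2 and 18.9 in the TRDKO control and 91.4, 91.1 and 99.8 in TRDKO T3. With T3 it lay above both WT groups. The rise was 2.24 ± 0.06, with 0.10 ± 0.05 in WT. Without TRDKO T3 replicate 3 igfbp1 moved to the stronger class. Among falls, il17c, an epithelial cytokine, was high in the TRDKO control alone (10.6 ± 0.958 CPM against 2.15 ± 0.259, 1.45 ± 0.439 and 1.298 ± 0.387), with a fall of -3.05 ± 0.18. The phosphatase ptpn18 was low in TRDKO T3 alone (22.2 ± 2.09 CPM against 52.0 ± 2.13, 54.7 ± 1.58 and 53.0 ± 2.56), with a fall of -1.26 ± 0.07. Without TRDKO T3 replicate 3, il17c and ppef2 moved to the stronger class, rbm20 and slc26a9 to the reversed class and srgap1 fell under the 2-fold floor.

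**Figure D4:**
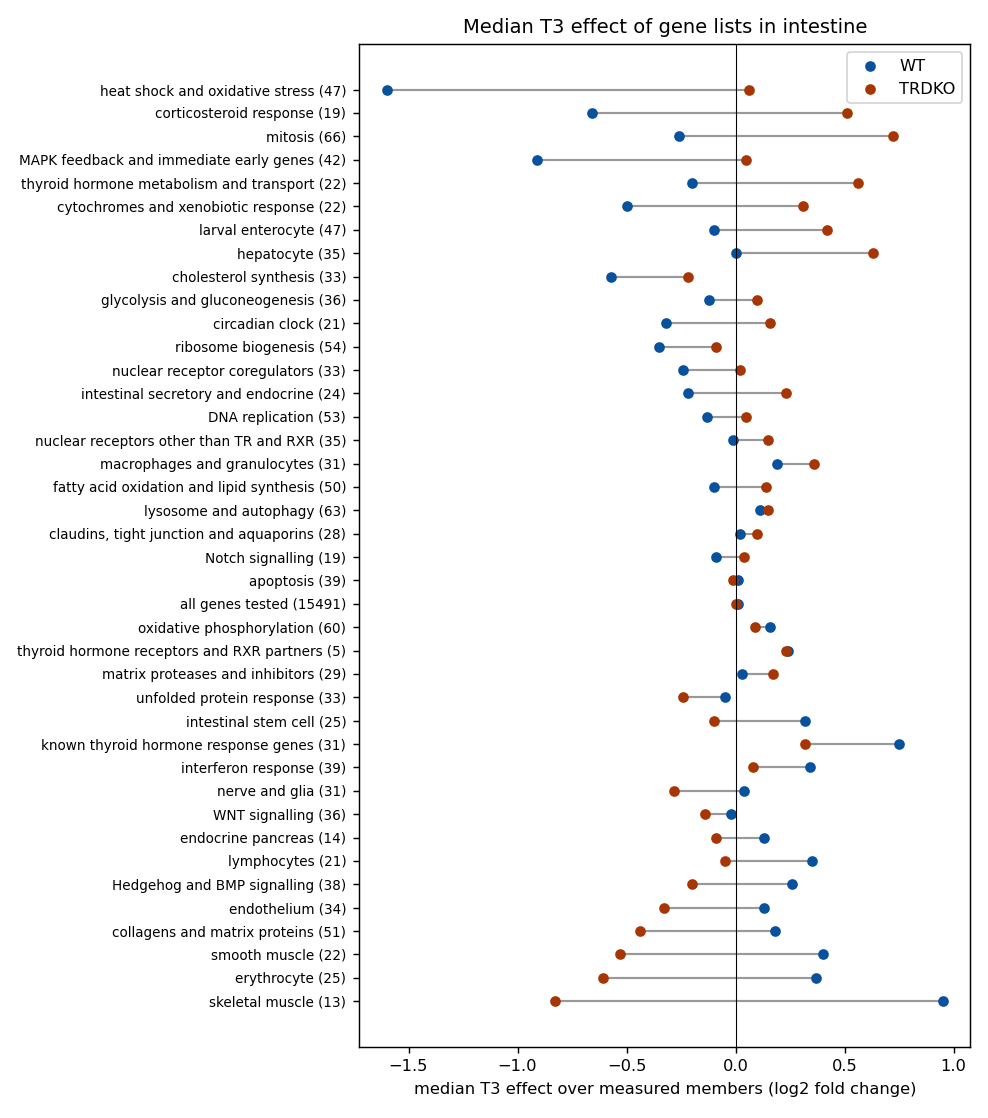
Median T3 effect (x axis, log2 fold change) over the measured members of each gene list in WT and TRDKO intestine, with the number of members in parentheses, ordered by the median interaction; the exocrine pancreas list (8.19 and -4.86) is off this scale and not drawn. The heat shock list has the widest gap on the upper side (-1.60 in WT, 0.06 in TRDKO), and all genes tested lie at 0.01 and 0.00.

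Other gene lists are described by their counts. Over all genes tested, T3 raised 30.3% and lowered 30.3% in WT, and raised 20.6% and lowered 20.3% in TRDKO. Their interaction was higher in 27.2% and lower in 25.1%. Of 66 measured mitosis genes, 31 fell and 12 rose with T3 in WT while 62 rose and 1 fell in TRDKO. The interaction was higher in 51 and lower in 3 (median 0.92). Their summed level was 413 ± 3.87 CPM in the WT control, 405 ± 3.12 in WT T3, 718 ± 2.49 in the TRDKO control and 1136 ± 10.9 in TRDKO T3. anln, a cytokinesis scaffold, went from 6.15 ± 0.426 to 3.60 ± 0.615 CPM in WT and from 9.79 ± 0.606 to 19.7 ± 1.48 in TRDKO. Of 53 genes of DNA replication the interaction was higher in 19 and lower in 7 (median 0.25), or 20 and 13 without TRDKO T3 replicate 3. mcm5, of the replicative helicase, was low in WT T3 alone (16.7, 5.63, 15.2 and 14.9 CPM).

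Of 33 measured genes of cholesterol synthesis and uptake, 23 fell with T3 in WT and 19 in TRDKO, with a higher interaction in 22 and a lower one in 2 (median 0.43; 24 and 4 without TRDKO T3 replicate 3), and 9 falls were weakened. ldlr, the LDL receptor, averaged 213 ± 1.83, 48.8 ± 0.496, 226 ± 4.07 and 138 ± 2.59 CPM over WT control, WT T3, TRDKO control and TRDKO T3 (-2.12 and -0.71, interaction 1.42 ± 0.05). WT T3 was the low group, and TRDKO T3 lay between it and the controls. lss, lanosterol synthase, fell by 1.82 and 0.52. ebp, a sterol isomerase, fell by 1.33 in WT, with -0.02 in TRDKO (interaction 1.31 ± 0.11).

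Of 39 interferon response genes, 26 rose in WT and 12 in TRDKO, and the interaction was lower in 16 and higher in 5 (median -0.27), with WT T3 apart in 13. Over all genes tested, 30.3% rose in WT and 20.6% in TRDKO, and 30.3% and 20.3% fell. The interaction was lower in 25.1% and higher in 27.2% of all genes, and WT T3 stood apart in 14.2%. Leaving out TRDKO T3 replicate 3 gave 18 rises in TRDKO and an interaction lower in 18 and higher in 8. Of 19 genes of the corticosteroid response, 12 fell in WT and 14 rose in TRDKO (interaction higher in 16 and lower in 1, median 1.2; 16 and 3 without TRDKO T3 replicate 3). zbtb16, a known corticosteroid target, went from 3.19 ± 0.0785 to 1.77 ± 0.293 CPM in WT and from 0.910 ± 0.168 to 4.57 ± 0.349 in TRDKO. The larval enterocyte list had 23 falls and 10 rises in WT and 3 falls and 35 rises in TRDKO, 5 and 39 without TRDKO T3 replicate 3 (interaction higher in 32 and lower in 5 of 47, median 0.61). In it, cubn, the vitamin B12 receptor cubilin, averaged 46.5, 12.9, 40.7 and 62.5 CPM over WT control, WT T3, TRDKO control and TRDKO T3. The lactase gene lct.2, not on the list and chosen after its values were seen, averaged 1675, 405, 979 and 1006 CPM, and its TRDKO value of 0.04 became a passing rise of 0.13 (adjusted p = 2.9e-04) without TRDKO T3 replicate 3.

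In lists of supporting tissues, lower interactions were more frequent than higher ones. Of 22 smooth muscle genes, 14 rose in WT and 18 fell in TRDKO, and the interaction was lower in 18 and higher in 1 (median -0.86; 18 and 2 without TRDKO T3 replicate 3), against 25.1% lower and 27.2% higher over all genes. tpm2, a tropomyosin, averaged 740 ± 23.1, 1149 ± 35.2, 1007 ± 39.1 and 580 ± 67.0 CPM. The interaction of collagens and matrix proteins was lower in 29 and higher in 4 of 51 (median -0.59), that of endothelial genes lower in 15 and higher in 2 of 34 (-0.40) and that of erythrocyte genes lower in 15 and higher in 4 of 25 (-1.05). The higher ones without TRDKO T3 replicate 3 were 11 among collagens and matrix proteins (29 lower, median -0.45) and 7 among endothelial genes (15 lower, median -0.27). The smooth muscle list summed to 8565 ± 211, 11310 ± 317, 9992 ± 311 and 6936 ± 394 CPM, and the erythrocyte list to 912 ± 10.7, 1220 ± 24.2, 1337 ± 31.3 and 892 ± 128 CPM. Skeletal muscle markers were low, with acta1, ckm, mylpf and tnnt3 each under 2 CPM in every library, although the 35 skeletal muscle genes in the file summed to 227.6 ± 2.79, 436.8 ± 5.63, 227.4 ± 1.103 and 116.1 ± 9.57 CPM, and the interaction was lower in 9 of the 13 measured (median -1.76). Whether the proportions of these tissues differed between samples was not tested.

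Within the list of the unfolded protein response the interaction was lower in 16 and higher in 9 of 33, the second share being close to the 27.2% of all genes. These were 19 and 13 without TRDKO T3 replicate 3. calr, the chaperone calreticulin, averaged 542, 800, 613 and 338 CPM over the 4 groups (0.56 and -0.86). ddit3, a stress transcription factor, fell in WT (-1.46), with -0.15 in TRDKO that passed as a fall of -0.23 without TRDKO T3 replicate 3. Of 60 genes of oxidative phosphorylation, 50 had no passing interaction, 8 were lower and 2 higher, and none reached the 2-fold floor. Without TRDKO T3 replicate 3, 41 of them were lower and 5 higher (median -0.22 in place of -0.06).

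The 12 tail libraries took no part in the sorting. Whether tail and intestine libraries came from the same animals is not known here. WT control replicates 1 and 3 of tail could not be told apart beyond sampling noise (mean chi-square per gene of 1.013 over 15826 genes, where sampling noise alone gives 1) and were counted as 1 sample, which leaves that group at n = 2 and the fit at 23 samples. There the same contrast passed in 9629 of 17887 genes (53.8%). Of the 824 genes with a lost effect in intestine, 418 (50.7%) had a passing tail interaction of the same sign and 63 (7.65%) one of the opposite sign. For the reversed class these shares were 47.2% and 9.51%, for the weakened class 63.2% and 9.75%, for the TRDKO-only class 33.9% and 14.3%, and for the stronger class 35.5% and 33.1%. Over all genes the shares of higher and lower tail interactions, whatever the sign in intestine, were 26.4% and 27.4%. The shares of the same and the opposite sign over all genes are not given here. The interaction itself differed between organs in 6689 genes (37.4%), and in 438 of the lost (53.2%), 380 of the reversed (69.5%) and 58 of the kept genes (30.2%). This difference contains the intestine interaction that sorted the genes. Higher shares in the lost and reversed classes and a lower one in the kept class are thus partly built in.

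Named genes showed both cases. hspa1b fell in WT tail by 6.99 ± 0.11, with 0.49 ± 0.24 in TRDKO tail (tail interaction 7.48 ± 0.32). avd rose in TRDKO tail from 0.144 to 10.5 CPM, by 6.15 ± 0.27, with 0.0960 and 0.0986 CPM in the WT tail groups. In contrast cyp1a1 had no passing T3 effect in tail (-0.30 ± 0.19 in WT, -0.19 ± 0.16 in TRDKO), and olfm4 was reversed there, at -1.55 ± 0.25 in WT and 4.96 ± 0.17 in TRDKO. For thibz the tail values were 6.11 ± 0.14 and 5.83 ± 0.13 and the difference between organs -0.01 ± 0.61 (adjusted p = 1.00).

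**Figure D5:**
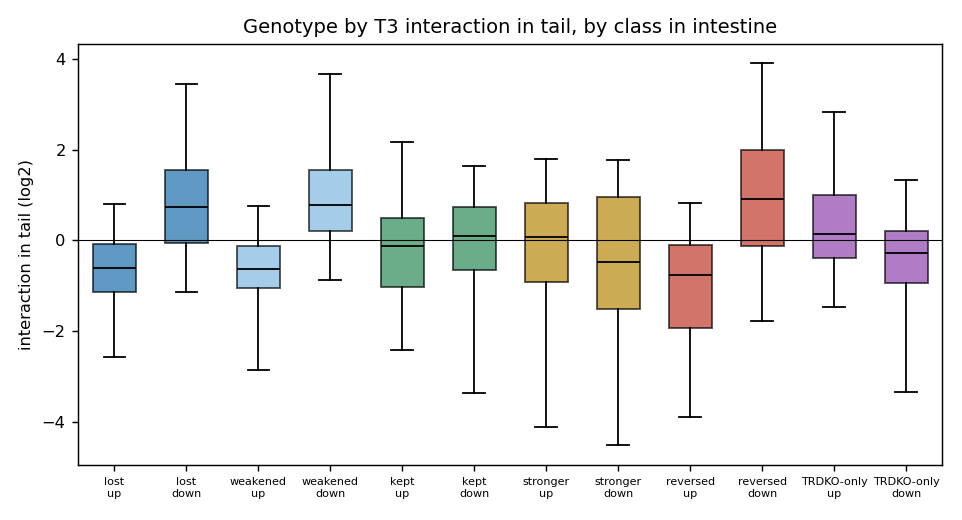
Genotype by T3 interaction in tail (y axis, log2) for the genes of each class in intestine, split by the direction of the T3 effect that defined the class; boxes span the quartiles with a line at the median and whiskers run from the 5th to the 95th percentile of genes. The medians are -0.61 for lost rises, 0.73 for lost falls, -0.76 for reversed rises and 0.91 for reversed falls, and near 0 for kept effects (-0.12 and 0.11).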

How the data were processed

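Total RNA (RNeasy kit) was sequenced from stranded total RNA libraries (TruSeq), per the labels' protocols. The authors deposited fragment counts per gene. Per the submitters' processing notes, cutadapt 3.2, STAR 2.7.7a and featureCounts of Subread 2.0.1 were used. Per the file headers, reads were counted reverse-stranded by gene name on the XENTR_10.0 annotation, and counting kept primary alignments with both ends mapped and dropped duplicates and chimeras, which can hold down the highest counts.

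From these deposited counts, 15491 of 26531 genes passed filterByExpr and were fitted over the 12 intestine libraries with edgeR 4.0.16 (R 4.3.3): trimmed-mean scaling, robust quasi-likelihood F tests and Benjamini-Hochberg adjustment, with 1 coefficient per group. A second fit over both organs tested 17887 genes. CPM use effective library sizes. Each SE is approximate, the size of the log2 contrast divided by the square root of its F value. For large effects with a group of few counts, such as those of mmp11, thibz, cpb1, hpx and hspa1b, it is too small. There the SEs of the T3 effects do not combine to that of the interaction. No SE is given where a group held 3 counts or fewer. The scripts were tested on simulated counts.

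Members and the 40 gene lists were chosen with earlier results of these data known. Named were thra and thrb, the known response genes, the 5 largest interactions per class and direction (kept effects by the smaller T3 effect) among genes with a gene name, at least 5 CPM in the highest group and no overlap, and up to 4 genes per list and direction. The 5 largest lost effects with 1 WT group apart were added after the values were seen. Promoter sequences are not shown here. Alternatives were upper-quartile and DESeq2 scaling, DESeq2 1.42.0, limma-voom (limma 3.58.1), no filter, a replicate block, all 24 libraries, stricter thresholds, other fold floors and leaving out each library.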

Additional observations from a re-analysis of the deposited data

Results flagged for a closer look

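For 31 known thyroid hormone response genes the genotype by T3 interaction was compared between intestine and tail in 1 edgeR quasi-likelihood fit (Benjamini-Hochberg adjustment over all genes). It differed in 18 (58.1%), against 37.4% of all genes tested, with a largest adjusted p of 0.0408. All 18 also differed without intestine TRDKO T3 replicate 3, when 21 did. More genes passed in all without that library, 8395 against 6689. Values are the intestine interaction minus the tail interaction on the log2 scale. Among enzymes and inhibitors of the matrix the difference was -3.15 for mmp11, -0.49 for mmp14 and -0.30 for timp2. For the deiodinases it was 1.41 for dio2 and -6.22 for dio3. For transcription factors it was -2.46 for klf9, 0.46 for nfib and -0.96 for mecom. For chromatin enzymes and cofactors it was -0.96 for dot1l, -0.74 for prmt1, -0.26 for carm1, -2.02 for rcor2 and -0.63 for kdm3a. For signalling genes it was -0.92 for hhip, -1.45 for bmp4, 0.55 for fgfr2 and -0.74 for ccn2. For pcna, the replication clamp, it was -0.79.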

How the results depend on the processing

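The replicate numbers did not pair the libraries (18 correlations of -0.14 to 0.11, 1 of them over 0.1); with the number as a replicate block 7899 interactions passed (4104 higher, 3795 lower), 9773 in tail and 6767 between organs. Leaving out 1 library gave 7422 to 10560 interactions, the most without TRDKO T3 replicate 3, with 3821 to 5457 higher and 3446 to 5103 lower. The classes then held 737 to 896 lost, 294 to 420 weakened, 163 to 217 kept, 100 to 160 stronger, 500 to 758 reversed, 222 to 248 TRDKO-only and 249 to 347 unsorted genes, and 420 to 501 lost genes had the WT control and 195 to 223 WT T3 apart. Without that library 11187 tail and 8395 organ differences passed. With no fold floor there were 3547 lost, 720 weakened, 1352 kept, 291 stronger, 1998 reversed, 1290 TRDKO-only and 2163 unsorted genes, and with a 4-fold floor 241, 121, 35, 33, 212, 56 and 30. The unsorted genes were 547 without the count filter, 386 over all 24 libraries and 367 at an adjusted p of 0.01, where 233 were weakened. The share of passing interactions that were higher was 52.0%, but 43.2% under upper-quartile scaling, which moved the median of all genes to -0.08, and 45.8% over 24 libraries. Of 6500 values for 325 named genes, 6300 kept direction and call, 163 lost and 19 gained the call, and 18 changed sign, all in ccn2 and syt8, which did not pass: ccn2, at 0.00, took -0.08 (upper quartile), -0.05 (24 libraries) and -0.07 to 0.10 without 1 library, and syt8 0.01 (DESeq2 and its size factors), 0.00 (no filter, limma-voom) and -0.06 to 0.04 without 1 library. Of 800 medians for the 40 lists, 666 lay within a limit of the main value, set from the spread between libraries. Another 131 lay beyond it, and 3 changed sign from a main value larger than the limit. These 3 were in apoptosis (-0.02, upper quartile) and matrix proteases (-0.24 to 0.03 without 1 library, above 0 without TRDKO T3 replicate 2 or WT T3 replicate 1). The causes were not tested. With 3 libraries per group, values that missed the threshold do not show equality, and genes at a few counts have wide intervals.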

Other observations

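Genes that handle thyroid hormone other than its receptors had a higher interaction in 13 and a lower one in 3 of 22 (median 0.80, against 0.00 over all genes). Of 54 genes of ribosome biogenesis, 39 fell and none rose with T3 in WT, while 11 fell and 2 rose in TRDKO; the interaction was higher in 27 and lower in 2 (median 0.31), with WT T3 apart in 17. This rested in part on TRDKO T3 replicate 3, without which 25 fell in TRDKO and the interaction was higher in 31 and lower in 8. Of 33 nuclear receptor coregulators it was higher in 15 and lower in 5 (median 0.30), and of 21 clock genes higher in 12 and lower in 3 (median 0.32). Without that library these were 20 and 7 coregulators and 16 and 3 clock genes (median 0.52). Of 31 markers of macrophages and granulocytes, 16 rose and 6 fell in WT and 18 rose and none fell in TRDKO (median interaction 0.19). Over all genes T3 raised 30.3% in WT and 20.6% in TRDKO, and the interaction was higher in 27.2% and lower in 25.1%.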
